A study of Homo sapiens with 6 samples.

Results

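Transcripts of 9 genes of the P-type ATPase pumps were followed in MDA-MB-231 cells, an established human line of triple negative breast cancer. The genes were chosen by symbol, with earlier results of these data known. They are 2 beta subunits of the sodium pump (ATP1B1, ATP1B3), 4 calcium or calcium and manganese pumps (ATP2A2, ATP2B1, ATP2B4, ATP2C1), the copper pump ATP7A and the pumps ATP13A1 and ATP13A3. All 9 were found among the 17646 genes listed in each library. The compared groups were 3 libraries from cells transfected with siUSP32, named for the deubiquitinase gene USP32, and 3 from cells transfected with siControl, both for 48 h. The labels do not say how many siRNAs siUSP32 holds, so effects of 1 sequence and of lower USP32 cannot be told apart. Nothing in the labels ties the libraries of 1 group to separate cultures. The p-values therefore cover only the spread among these libraries, and that spread may be technical. The study's title names the stabilization of YAP by USP32 as its subject, and the design compares transcript levels with and without USP32 depletion.

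P-type ATPases carry ions, polyamines or lipids across membranes and are phosphorylated on an aspartate by ATP in each cycle. The sodium pump joins a catalytic alpha subunit to a glycosylated beta subunit, which brings it out of the endoplasmic reticulum. The calcium pumps clear the cytosol, into the endoplasmic reticulum (ATP2A2), the Golgi (ATP2C1) or the medium (ATP2B1, ATP2B4). The name ion pump covers 2 of the 9 genes loosely, since ATP13A1 removes misplaced membrane helices from the endoplasmic reticulum and ATP13A3 takes up polyamines.

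The values deposited by the authors were FPKM (fragment counts scaled by transcript length and library size), so levels of different genes can be compared per length. They summed to between 855573 and 948641 in siUSP32 libraries and to between 686376 and 694831 in siControl libraries. The median gene lay at 3.59 to 3.88 FPKM in siUSP32 and at 5.14 to 5.23 FPKM in siControl. USP32 itself was at 1.88 to 2.01 FPKM in siUSP32 and at 7.48 to 8.32 FPKM in siControl libraries, a 3.96-fold fall in the mean. Markers of the line (VIM, CD44, MKI67, EGFR) lay between 6.31 and 1715 FPKM in siUSP32 and between 16.7 and 1098 FPKM in siControl libraries. They were not stable: VIM rose 1.53-fold in siUSP32, while CD44, MKI67 and EGFR fell 3.15-fold, 2.03-fold and 5.27-fold. Of the receptor and epithelial genes that should be low, the 4 listed reached at most 4.85 FPKM in siUSP32 and 12.2 FPKM in siControl. ESR1 and CDH1 reached at most 0.63 FPKM. In siControl, ERBB2 at 11.7 to 12.2 FPKM and EPCAM at 9.61 to 12.1 FPKM lay above the median gene. These 2 fell 3.34-fold and 2.48-fold in siUSP32. Markers of blood, endothelial and liver cells, of which 5 of 6 were listed, summed to 0.42 to 0.49 FPKM in siUSP32 and to 0.99 to 1.18 FPKM in siControl. Most of these sums was the endothelial marker PECAM1, at 0.39 to 0.42 FPKM in siUSP32 and 0.96 to 1.10 FPKM in siControl. PTPRC, the defining blood cell marker, was at 0 in 5 of the 6 libraries. The part of the marker and library differences in the results below was not tested.

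Each of the 9 transcripts was lower in siUSP32 cells, and for each of them the highest siUSP32 library lay under the lowest siControl library. The falls in mean FPKM ran from 2.31-fold for ATP1B3 to 9.37-fold for ATP2B4, with a median of 4.90-fold. The calcium pumps ATP2B4 and ATP2A2 kept 10.7% and 10.9% of their siControl level. All 9 passed the test (limma on log2(FPKM + 1), Benjamini-Hochberg adjusted p under 0.05 over 12003 tested genes), with a median log2 difference of -2.15. For ATP7A the call and the size of the fall carry no weight, since it passed the filter on low values only through its siControl level. The counts and medians over the 9 genes include it. A call is common in these libraries: 74.6% of all tested genes passed, 41.3% lower and 33.3% higher, 43.2% were lower without overlap between the groups, and the median difference of all tested genes was -0.06. A fall of at least 2-fold in the mean, which all 9 showed, was seen in 15.1% of the tested genes. In bulk samples a change in the cells' composition and a change in RNA per cell cannot be told apart.

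**Figure D1:**
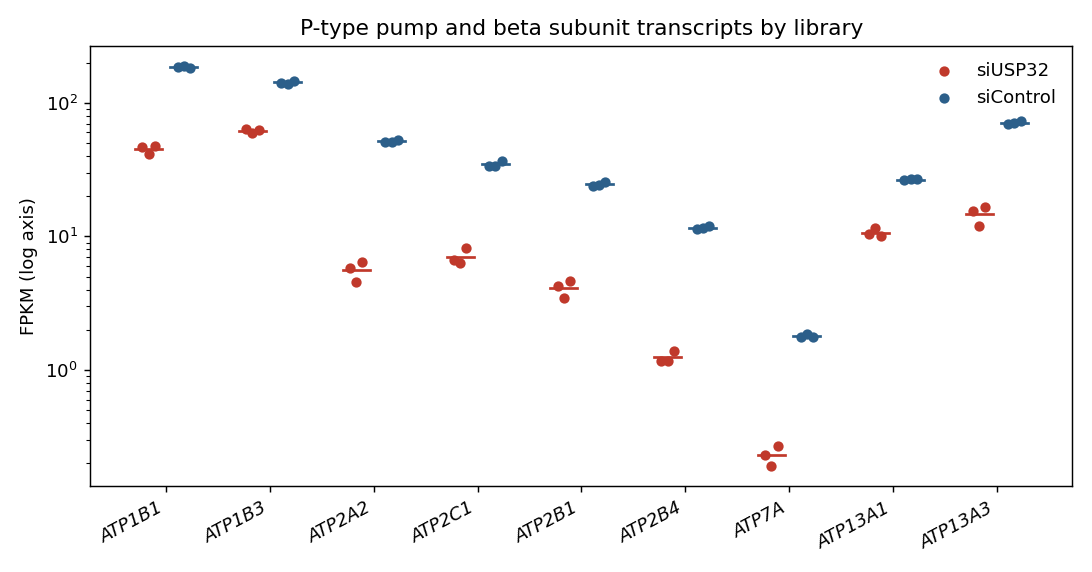
FPKM of the 9 transcripts in each library on a log axis, siUSP32 in red and siControl in blue, with a line at each group's mean. No siUSP32 library reached the lowest siControl library of the same gene, and the gap is widest for ATP2B4 (9.37-fold) and ATP2A2 (9.20-fold).

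Stretches before the RefSeq start sites (GRCh38.p14) of 2 of these genes are shown as examples. Each holds a CCAAT box, the TEAD letters or both, and no exon of the same gene in GENCODE 29 covers the printed bases. Other windows of the 9 genes with matches are not printed. ATP13A3 has both the TEAD letters and a CCAAT box in its 250 bases, and ATP1B3, the gene with the smallest fall, has a CCAAT box in 219 bases. The 31 bases of the ATP1B3 window that lie in its own exons were cut off. Both stretches lie inside the gene spans printed below, since GENCODE 29 places the first start of each gene farther upstream than RefSeq. Capitals mark GGAATG, the letters of the motif bound by the TEAD partners of YAP, and the CCAAT box, here on the other strand as ATTGG. The GC box GGGCGG, also searched for, is not marked.
ATP13A3, chr3:194468386-194468635, minus strand: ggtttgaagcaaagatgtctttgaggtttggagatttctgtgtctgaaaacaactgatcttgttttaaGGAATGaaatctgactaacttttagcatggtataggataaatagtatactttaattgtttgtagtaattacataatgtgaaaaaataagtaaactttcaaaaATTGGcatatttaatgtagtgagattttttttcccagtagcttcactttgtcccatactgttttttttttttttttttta
ATP1B3, chr3:141876395-141876613, plus strand: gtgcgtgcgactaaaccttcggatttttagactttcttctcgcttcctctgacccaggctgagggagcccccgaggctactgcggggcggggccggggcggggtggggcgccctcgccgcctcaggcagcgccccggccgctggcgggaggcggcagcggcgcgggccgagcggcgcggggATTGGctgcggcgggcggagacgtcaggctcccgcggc
The TEAD letters begin 182 bases and the CCAAT box 80 bases before the start of ATP13A3, and the CCAAT box begins 67 bases before that of ATP1B3. The 9 genes have 13 RefSeq windows of 250 bases, searched on both strands. GGAATG was found in 3 of the 13 windows (ATP2B4, ATP2C1, ATP13A3) and in 11.9% of all 35116 windows. CCAAT was found in 4 of the 13 and in 32.0% of all windows. The GC box GGGCGG was found in 8 of the 13, from 6 genes, and in 42.6% of all windows. A match is a description of letters and not a measured site.

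The beta subunits were the most abundant of the 9 transcripts and fell unequally. ATP1B1 (Entrez 481, chromosome 1, 169105697 to 169132722 on the plus strand, all positions here being GRCh38) encodes beta 1, the common beta subunit of epithelia, which also joins neighbouring cells. It was at 47.1, 41.4 and 47.5 FPKM in siUSP32 libraries, against 187, 189 and 183 FPKM in siControl libraries. The groups lay far apart, with a 4.11-fold fall in the mean (log2 difference -2.02 ± 0.06, SE, limma adjusted p = 8.72e-09). ATP1B3 (Entrez 483, chromosome 3, 141876124 to 141926514 on the plus strand) encodes beta 3. It was at 63.2, 59.2 and 62.4 FPKM in siUSP32 libraries, against 142, 140 and 145 FPKM in siControl libraries. Its fall of 2.31-fold was the smallest of the 9 (log2 difference -1.19 ± 0.05, limma adjusted p = 4.39e-08).

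Because ATP1B1 fell by more than ATP1B3, the order of the beta subunits turned round. The ratio of ATP1B1 to ATP1B3 was 0.744, 0.700 and 0.760 in siUSP32 libraries, against 1.32, 1.35 and 1.26 in siControl libraries. Such a ratio is not touched by a common scaling of a library. On the log2 scale it was lower by 0.84 ± 0.05 (SE, n = 3 each) in siUSP32, with no overlap between the groups, and by 0.66 with a correction for transcript length. The exact 2-sided permutation p was 0.1, and with 3 libraries in each group it cannot be smaller. Some reads may be shared with named pseudogenes, 1 each for ATP1B1 and ATP1B3, and 192 bases of ATP1B1 overlap NME7 on the opposite strand. The authors' treatment of such reads is not stated in the labels or files.

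**Figure D2:**
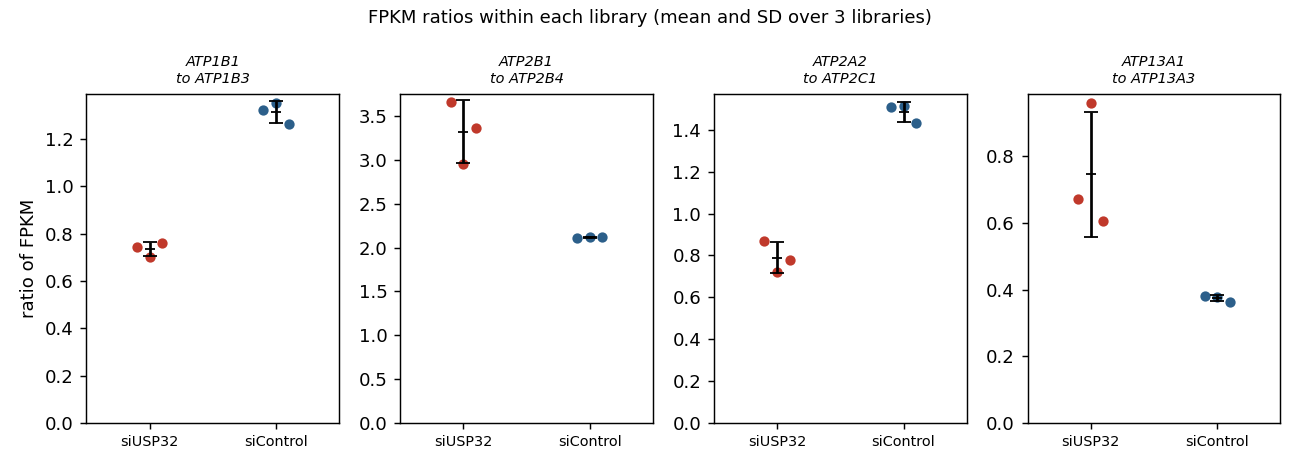
Ratios of FPKM between pairs of transcripts within each library, siUSP32 in red and siControl in blue, with the mean and SD of 3 libraries, each axis starting at 0. The groups do not overlap in any of the 4 panels, though overlap was not counted for other gene pairs. The ratios of ATP1B1 to ATP1B3 and of ATP2A2 to ATP2C1 lie above 1 in siControl and below 1 in siUSP32 libraries.

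Among the calcium pumps, ATP2A2 (Entrez 488, chromosome 12, 110280756 to 110351093 on the plus strand) encodes SERCA2, which fills the calcium store of the endoplasmic reticulum. Its transcript was at 5.83, 4.52 and 6.40 FPKM in siUSP32 libraries, against 50.6, 51.2 and 52.3 FPKM in siControl libraries. The 9.20-fold fall was the largest of the 9 on the log2(FPKM + 1) scale (log2 difference -3.00 ± 0.10, SE, limma adjusted p = 1.51e-08), and 32 of the 12003 tested genes had a larger one. ATP2C1 (Entrez 27032, chromosome 3, 130850595 to 131016712 on the plus strand) encodes SPCA1, which carries calcium and manganese into the Golgi. It was at 6.70, 6.27 and 8.22 FPKM in siUSP32 libraries, against 33.5, 33.8 and 36.6 FPKM in siControl libraries. It fell 4.90-fold (log2 difference -2.15 ± 0.09, limma adjusted p = 5.76e-08). In siControl libraries ATP2A2 stood above ATP2C1, whereas in siUSP32 libraries their values overlapped. The ratio of ATP2A2 to ATP2C1 was 0.870, 0.721 and 0.779 in siUSP32 libraries, against 1.51, 1.52 and 1.43 in siControl libraries (exact permutation p = 0.1). ATP2C1 shares 188 bases with ASTE1 on the opposite strand.

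The plasma membrane pumps, which export calcium to the medium under the control of calmodulin, were lower too. ATP2B1 (PMCA1, Entrez 490, chromosome 12, 89588049 to 89709300 on the minus strand) was at 4.28, 3.45 and 4.64 FPKM in siUSP32 libraries, against 24.03, 24.31 and 25.39 FPKM in siControl libraries. This was a 5.96-fold fall (log2 difference -2.33 ± 0.09, SE, limma adjusted p = 3.37e-08). ATP2B4 (PMCA4, Entrez 493, chromosome 1, 203626561 to 203744081 on the plus strand) was at 1.17, 1.17 and 1.38 FPKM in siUSP32 libraries, against 11.40, 11.47 and 11.97 FPKM in siControl libraries. Its 9.37-fold fall (log2 difference -2.49 ± 0.07, limma adjusted p = 5.77e-09) was the largest of the 9 as a ratio of means. The ratio of ATP2B1 to ATP2B4 was accordingly higher in siUSP32, at 3.66, 2.95 and 3.36, than in siControl, at 2.11, 2.12 and 2.12 (exact permutation p = 0.1).

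ATP7A (Entrez 538, chromosome X, 77910656 to 78050395 on the plus strand) loads copper onto enzymes in the trans-Golgi and exports it from the cell, and its loss causes Menkes disease. It was the rarest of the 9, at 0.23, 0.19 and 0.27 FPKM in siUSP32 libraries, against 1.76, 1.86 and 1.77 FPKM in siControl libraries. The mean fell 7.81-fold. The log2 difference of -1.19 ± 0.07 (SE, limma adjusted p = 4.79e-07) understates this because of the pseudocount, and it was -2.53 with a pseudocount of 0.1 and -0.67 with the length correction. ATP7A passed the filter of a mean of 1 FPKM only through its siControl level, so it had to differ once it was tested. Up to 97 bases of its transcript are shared with PGK1 on the same strand.

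The remaining pair are P5-type ATPases. ATP13A1 (Entrez 57130, chromosome 19, 19645198 to 19663693 on the minus strand), the helix remover of the endoplasmic reticulum, was at 10.44, 11.51 and 10.02 FPKM in siUSP32 libraries, against 26.2, 26.8 and 26.8 FPKM in siControl libraries. Its 2.49-fold fall was the smallest among the 7 catalytic genes (log2 difference -1.24 ± 0.06, SE, limma adjusted p = 1.86e-07). ATP13A3 (Entrez 79572, chromosome 3, 194402672 to 194498364 on the minus strand), an endosomal polyamine transporter, was at 15.5, 12.0 and 16.5 FPKM in siUSP32 libraries, against 68.9, 70.6 and 73.5 FPKM in siControl libraries. It fell 4.84-fold (log2 difference -2.21 ± 0.10, limma adjusted p = 1.06e-07). The ratio of ATP13A1 to ATP13A3 was 0.672, 0.959 and 0.607 in siUSP32 libraries, against 0.381, 0.379 and 0.364 in siControl libraries (exact permutation p = 0.1). Of the 4 ratios fixed in the design, each differed without overlap, and adjusted over the 4 the p-values remain at 0.1. How often ratios of other gene pairs differ without overlap was not counted. With 74.6% of all tested genes called, the 4 ratios cannot be read as particular to the pumps.

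In siControl cells the levels ran, from high to low, ATP1B1, ATP1B3, ATP13A3, ATP2A2, ATP2C1, ATP13A1, ATP2B1, ATP2B4 and ATP7A, and no neighbours in that order overlapped. In siUSP32 cells ATP1B3 came first, then ATP1B1, ATP13A3, ATP13A1, ATP2C1, ATP2A2, ATP2B1, ATP2B4 and ATP7A. There ATP2C1 overlapped ATP2A2, and ATP2A2 overlapped ATP2B1. The 9 genes together summed to 140 to 157 FPKM in siUSP32 libraries and to 545 to 557 FPKM in siControl libraries. The spread between libraries was wider in siUSP32, with a coefficient of variation of 3.46% to 17.4% against 1.16% to 4.86% in siControl. siUSP32 replicate 2 was the lowest or tied for lowest library for 8 of the 9 genes, the exception being ATP13A1, for which it was the highest.

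The sums of the libraries differ between the groups, so the 9 differences were also taken with other scalings. With rescaling to a common sum (TPM), which moves the median of all tested genes to -0.39, they lay between -3.39 and -1.52. After quantile normalization, with that median at 0.10, they lay between -2.91 and -0.86. With a correction of each library for transcript length, with that median at 0.01, they lay between -2.76 and -0.67. All 9 were called lower each time, against 62.1% of all genes with TPM, 30.0% by quantile scaling and 35.1% once length was corrected for. The shares of all genes called higher were 14.3%, 43.8% and 35.6% in the same order. Median-ratio scaling also left all 9 lower, beside 34.7% of all genes lower and 40.9% higher. Among the 9, the difference and transcript length had a Spearman's rho of -0.35 with the pseudocount of 1 and of -0.67 with one of 0.1 (n = 9), a description only, as these genes share libraries and sequence features.

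**Figure D3:**
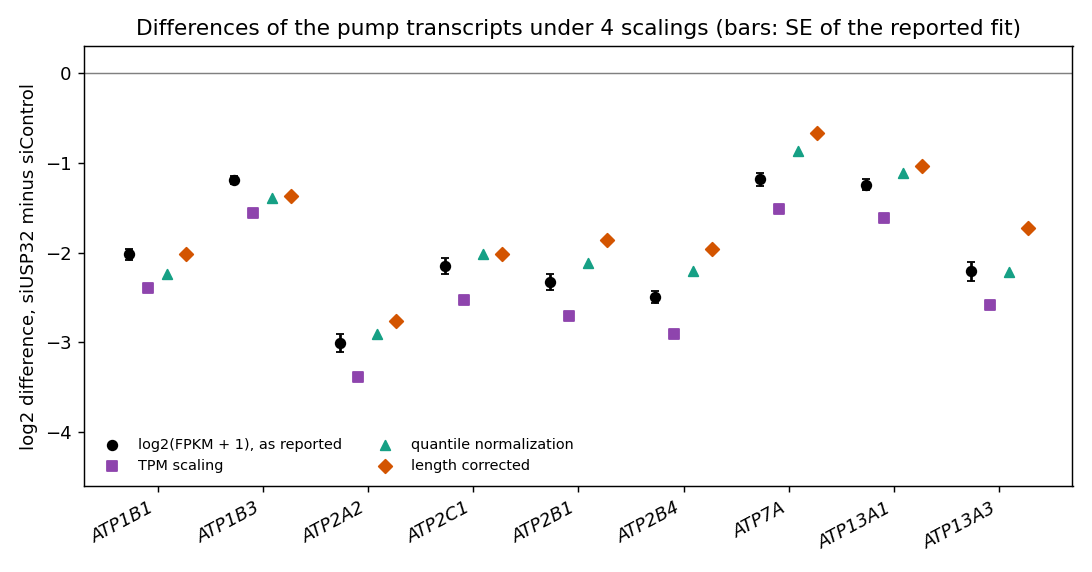
Log2 differences (siUSP32 minus siControl) of the 9 transcripts as reported, with SE, and with TPM scaling, quantile normalization and length correction. Every point lies below 0, from -3.39 for ATP2A2 with TPM to -0.67 for ATP7A with the length correction.

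The 9 proteins have hydrophobic segments, a trait that the choice by name brought with it, since these are membrane pumps and their subunits. A segment was a window of 19 residues with a mean hydropathy on the Kyte-Doolittle scale at or above 1.6. The 7 catalytic proteins, of 949 to 1500 residues, have 6 to 12 such segments, and the beta subunits, of 303 and 279 residues, have 1 each. Over all tested genes the share called lower went with this count. It was 31.0% of 8056 genes with no segment, 52.2% of 2115 other genes with 1 segment, 69.4% of 1331 with 2 to 5 and 89.5% of 448 other genes with 6 or more (89.7% with the pumps counted in). With at least 1 segment it was 62.5%. In the class with 6 or more the median log2 difference was -1.01, or -0.80 with the length correction, and the median fall in FPKM 2.52-fold. A lower transcript was therefore the usual outcome for genes with 6 or more such segments. Whether the pumps differ from that class was not tested.

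Places within the class of 6 or more segments depended on the scale. As a ratio of mean FPKM, a fall at least as large as that of ATP2B4 was seen in 10 of the 448 other genes, of ATP2A2 in 11, of ATP2B1 in 41, of ATP2C1 in 63, of ATP13A3 in 66 and of ATP13A1 in 228. On the log2(FPKM + 1) scale these counts were 14 for ATP2B4, 1 for ATP2A2, 20 for ATP2B1, 26 for ATP2C1, 24 for ATP13A3 and 161 for ATP13A1. On both scales ATP2A2 and ATP2B4 were near the far end of the class and ATP13A1 lay well inside it. Neither scale corrects for transcript length. With the length correction the log2 difference of ATP2B4 moved from -2.49 to -1.96 and that of ATP2A2 from -3.00 to -2.76. Places in the class were not taken with that correction. ATP7A is given no place, since it passed the filter only through siControl and its count was 21 on the first scale and 183 on the second. Among the 2115 other genes with 1 segment, 195 fell by at least as much as ATP1B1 and 442 by at least as much as ATP1B3 as ratios, and 107 and 339 did on the log2 scale.

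**Figure D4:**
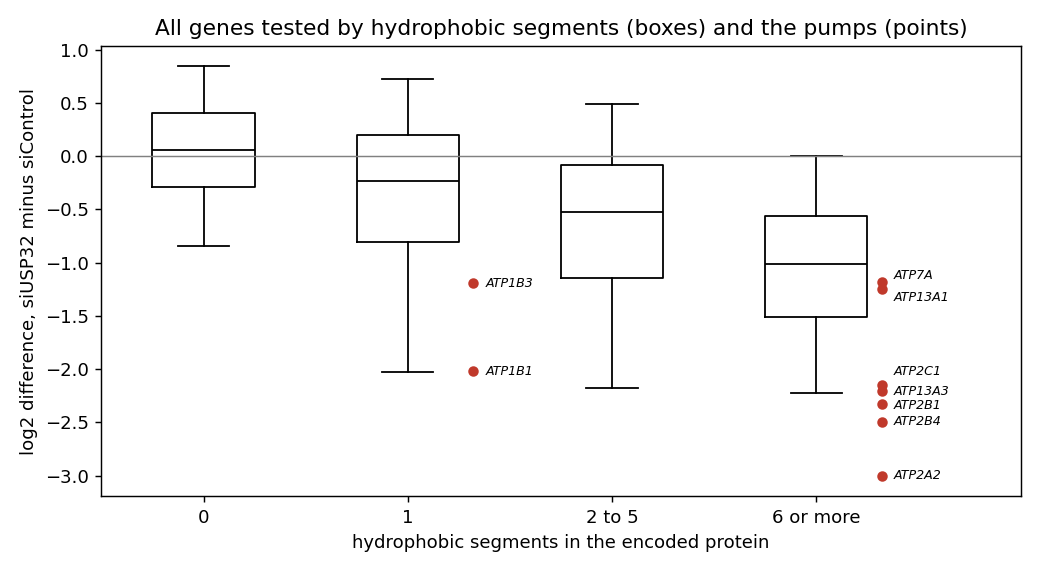
Log2 differences (siUSP32 minus siControl) of tested genes, grouped by hydrophobic segments in the encoded protein, with the 9 pump genes left out of the boxes and drawn as red points. Boxes span the quartiles with a line at the median, whiskers run from percentile 5 to 95, and the medians go from 0.06 with 0 segments to -1.01 with 6 or more, with 5 of the 7 catalytic pumps at or below -2.15.

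The other human P-type ATPases moved the same way where they were measured. Of 29 listed, 13 passed the filter on low values, and 6 of those, ATP2A3 and ATP7B among them, did so only through their siControl level. The 16 left out reached at most 0.83 FPKM in any library. Genes that passed through both levels included ATP13A2, which exports polyamines from lysosomes, and ATP8B2, ATP9A, ATP9B and ATP11B of the lipid flippase class. All 13 were called lower and 0 higher, with a median log2 difference of -1.31. For the 6 that passed only through siControl the call carries no weight. The 13 belong to the class with 6 or more hydrophobic segments, where 89.5% of genes were called lower, against 41.3% of all tested genes. Whether they differ from that class was not tested. The fall in mean FPKM was 2.29-fold for ATP13A2. ATP8B2 was at 4.66 ± 0.23 FPKM in siUSP32 and 11.8 ± 0.31 FPKM in siControl (SD, n = 3 each), a 2.54-fold fall, and ATP9A fell 3.74-fold. ATP9B was at a mean of 1.02 FPKM in siUSP32 and 2.56 FPKM in siControl. The flippases ATP11A and ATP11B, which move lipids to the inner leaflet, fell 6.54-fold and 5.90-fold. ATP10D fell 5.18-fold, ATP8B1 4.99-fold, the copper pump ATP7B 6.99-fold and the calcium pump ATP2A3 3.81-fold.

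Of 20 written subunits and regulators of the pumps, 14 were listed and 7 tested. There were 4 falls, 0 rises and 3 genes short of the threshold (median log2 difference -0.76). Among the falls, ATP1B2 passed the filter on low values only through siControl, at a mean of 0.67 FPKM in siUSP32 and 3.37 FPKM in siControl. Beside this list and those below, 41.3% of all tested genes were called lower and 33.3% higher. TMEM30A, the subunit that most flippases need to leave the endoplasmic reticulum, was at 9.83, 7.87 and 10.5 FPKM in siUSP32 libraries, against 57.8, 60.1 and 62.9 FPKM in siControl libraries. This was a 6.40-fold fall (limma adjusted p = 2.55e-08). NPTN, which encodes neuroplastin, a partner that stabilizes plasma membrane calcium pumps, fell 3.02-fold (limma adjusted p = 1.99e-07). FXYD5, a small modulator of the sodium pump, was at 598, 749 and 549 FPKM in siUSP32 and at 543, 565 and 556 FPKM in siControl libraries, and the groups overlapped (limma adjusted p = 0.142). It was named after its values were seen, as an abundant partner that did not pass. Its direction depended on the scaling. Its log2 difference was 0.18, with calls as lower by TPM (-0.20), quantile scaling (-0.35) and length correction (-0.30), and a call as higher by median-ratio scaling (0.31).

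Calcium stores and entry were divided. Of 27 written genes 26 were listed and 22 tested, with 12 falls, 4 rises and 6 genes short of the threshold (median log2 difference -0.58, against -0.16 with the length correction). TMEM165, a Golgi protein of calcium and manganese balance, fell 2.69-fold, to 27.9 ± 0.80 FPKM in siUSP32, against 74.9 ± 0.78 FPKM in siControl (SD, n = 3 each). STIM1, the sensor of the store that ATP2A2 fills, was at 1.91, 1.93 and 1.79 FPKM in siUSP32 and at 8.03 to 8.87 FPKM in siControl libraries, a 4.51-fold fall (limma adjusted p = 3.93e-08). It was also called lower with TPM, at -2.10 on the log2 scale, and once length was corrected for, at -1.49. With TPM 1 gene of the list rose and 19 fell. Among the 12 falls, ITPR1 passed the filter on low values only through siControl, at a mean of 0.85 FPKM in siUSP32 and 1.73 FPKM in siControl.

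Copper genes were read beside ATP7A and were divided. The list of 10 genes for uptake and copper chaperones also counts the enzyme SOD1. Of these 10, 8 rose, 1 fell and 1 did not pass, with a median log2 difference of 0.46 that was 0.10 with TPM, where 4 rose. SOD1, the cytosolic copper and zinc superoxide dismutase, rose 1.84-fold and SCO2, a mitochondrial copper chaperone, rose 1.72-fold. SLC31A1, the copper importer of the plasma membrane, fell 1.85-fold, to 11.2 ± 0.31 FPKM in siUSP32, against 20.8 ± 0.52 FPKM in siControl (SD, n = 3 each). ATOX1, which hands copper to ATP7A and was named for that role after its values were seen, was at 386, 467 and 390 FPKM in siUSP32 and at 288, 308 and 311 FPKM in siControl libraries. Its 1.37-fold rise (limma adjusted p = 5.70e-04) was lost with TPM (log2 difference 0.08), by quantile scaling (0.10) and once length was corrected for (-0.05). Of 11 enzymes that receive copper in the secretory pathway 10 were listed and 6 tested, of which 5 fell and 1 rose (median log2 difference -2.06). The lysyl oxidase genes LOXL2 and LOXL4 fell 7.11-fold and 7.21-fold, while LOXL3 rose 1.73-fold, to 1.77 ± 0.22 FPKM in siUSP32, against 1.02 ± 0.17 FPKM in siControl.

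Polyamine genes were tested beside ATP13A3. Of 10 genes 7 rose and 3 fell, with a median log2 difference of 0.29 that was -0.03 with TPM, where 4 rose and 4 fell. SAT1, which acetylates polyamines for export and breakdown, was at 682, 694 and 704 FPKM in siUSP32 libraries, against 189, 195 and 190 FPKM in siControl libraries, a 3.63-fold rise (limma adjusted p = 2.95e-09). SMOX, spermine oxidase, rose 2.74-fold. ODC1, the first enzyme of polyamine synthesis, fell 1.31-fold and OAZ2, an inhibitor of that enzyme, fell 1.32-fold. OAZ1, the more abundant inhibitor of the same kind, was at 745, 837 and 720 FPKM in siUSP32 libraries, against 413, 410 and 391 FPKM in siControl libraries. It rose (log2 difference 0.92, limma adjusted p = 1.72e-06), also with TPM (0.55), and was named after its values were seen.

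**Figure D5:**
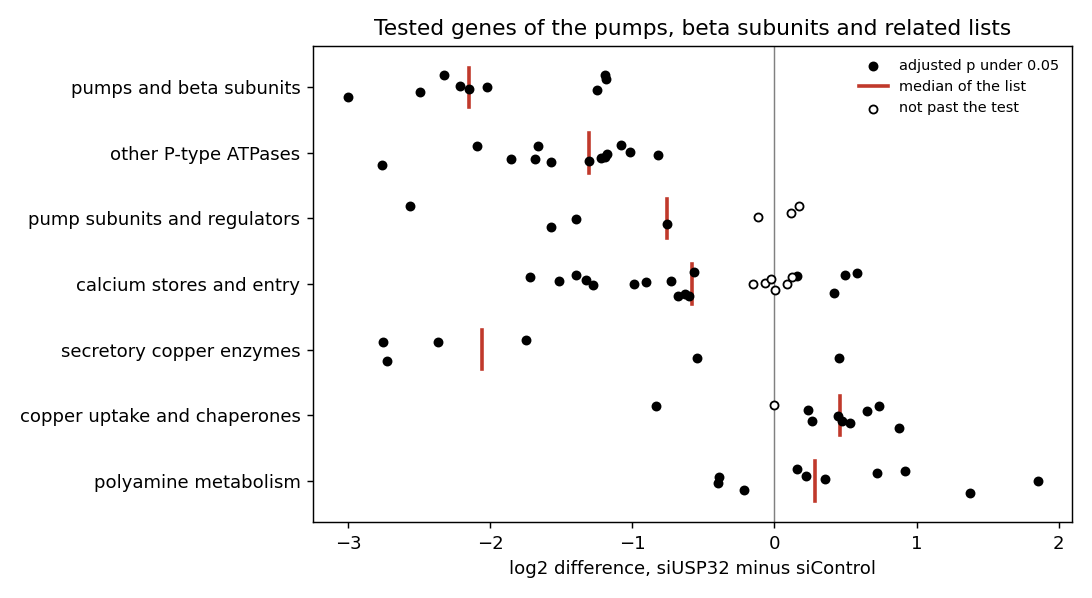
Log2 differences (siUSP32 minus siControl) of tested genes in the pump set and in 6 related lists, with filled points for genes past the test, open points for the rest and a red line at each list's median. The medians run from -2.15 for the pumps and beta subunits to 0.46 for copper uptake and chaperones.

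The 3 tested genes nearest to ATP2A2, by Euclidean distance of their centred log2 values over the 6 libraries, were TFRC, FAT1 and CANX, at distances of 0.09, 0.10 and 0.11. TFRC, the transferrin receptor gene, was at 19.3, 16.2 and 21.8 FPKM in siUSP32 libraries, against 165, 166 and 167 FPKM in siControl libraries. FAT1 encodes a giant cadherin and CANX the chaperone calnexin, and they fell 14.7-fold and 8.07-fold. Their nearness says only that the 6 values moved alike.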

How the data were processed

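The authors deposited 1 table of FPKM per library, per the file headers, with 2 decimals and Entrez identifiers. RNA was taken up in Trizol and sequenced on an MGISEQ-2000, per the labels' protocols. The submitters' processing notes name GRCh38.p13. The aligner, the counting, the annotation and the strand setting were not given in the sources used here. Read depth is unknown. The lowest value above 0 was 0.01 in every library, the rounding step, so no reads were recovered and no counting intervals are given. FPKM is no count, so no count model was used.

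The 12003 genes whose mean over the libraries reached 1 FPKM were tested on the log2(FPKM + 1) scale with limma 3.58.1 in R 4.3.3 (mean-variance trend, 2-sided, Benjamini-Hochberg over all tested genes, threshold 0.05). Folds are ratios of mean FPKM. Tested on data simulated for siUSP32 against siControl over the 12003 genes, the fit recovered 74.6% of 67 genes changed by 0.5 and 95.5% of 67 changed by 1 on the log2 scale. It also called 8 unchanged genes. The simulation changed far fewer genes than were called in the data and added no difference in library sums. These rates therefore may not hold for the data. Ratios of transcripts were tested with exact permutation tests (SciPy 1.17.1).

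Transcript length, gene locations and the translated proteins came from the principal transcripts of GENCODE 29 on GRCh38, found for 99.6% of tested genes, and promoters from RefSeq on GRCh38.p14, found for 9 of 9 genes. The length correction subtracted from each library a robust loess curve (span 0.5) of its deviations. The genes and the 6 related lists, with 107 entries, were chosen from general knowledge with earlier results of these data known. Named genes were the 9, USP32, every other tested P-type ATPase, up to 2 rises and 2 falls per related list by adjusted p, and the 3 nearest to ATP2A2. Some genes under this rule are not reported here. Alternatives covered the pseudocount, the filter, scaling, trend, weights, replicate block, length and each library left out.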

Additional observations from a re-analysis of the deposited data

How the results depend on the processing

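All 9 pump and beta subunit transcripts were lower past the threshold under every alternative that tested them, 143 values in all, from -3.39 to -0.67 on the log2 scale. ATP7A was not tested at a minimum of 5 FPKM, and its calls past the filter of 1 FPKM carry no weight. Leaving out each library in turn kept 9 of 9 lower and 0 higher. Over all tested genes 4001 were higher and 4956 lower, against 1716 and 7453 with TPM. With a minimum of 5 FPKM 3068 were lower, with no filter 5969. Leaving out 1 library gave 3692 to 4276 higher and 4556 to 5083 lower. Of the other P-type ATPases 20 were lower with no filter and 5 at a minimum of 5 FPKM, against 13. Of subunits and regulators 0 rose, but 1 did with no filter, 2 with median-ratio scaling, 1 after quantile normalization and 0 to 1 with a library left out (1 without siUSP32 replicate 3). With TPM 1 calcium gene rose and 19 fell, 4 copper uptake and chaperone genes rose, and 4 polyamine genes rose. At a minimum of 5 FPKM 0 secretory copper enzymes rose. The differences in log2 ratio moved with the length correction, from -0.84 to -0.66 for ATP1B1 to ATP1B3, from -0.92 to -0.81 for ATP2A2 to ATP2C1 and from 0.97 to 0.69 for ATP13A1 to ATP13A3. That of ATP2B1 to ATP2B4 moved from 0.65 to 0.47 after quantile normalization. With a library left out these ranged from -0.86 to -0.80, from -0.99 to -0.85, from 0.77 to 1.10 and from 0.57 to 0.73. None changed sign, and the causes of these moves were not tested.

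The replicate numbers were not used to pair the libraries. Same-numbered libraries deviated from their group means with r = -0.08, 0.07 and 0.12 across genes, and unlike-numbered ones with r between -0.16 and 0.10. With so few libraries these values cannot exclude a pairing. A fit with the replicate block called 4016 genes higher and 4979 lower and 9 of 9 pump genes lower. Depth is unknown, so for ATP7A, at 0.19 to 0.27 FPKM in siUSP32 libraries, the number of reads behind the values cannot be given.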
